A study of Mus musculus with 12 samples.

Results

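Glucocorticoid-responsive genes and the glucocorticoid receptor were followed across the pituitary arrays of mice that had lost 1 or both alleles of Pomc, the gene of the ACTH precursor. The group held 10 genes, namely the receptor gene Nr3c1 and Fkbp5, Tsc22d3, Sgk1, Per1, Zbtb16, Klf9, Ddit4, Mt1 and Mt2. Its members were all probe sets whose platform annotation named exactly 1 gene, that gene being one of the 10. The rule found 29 probe sets of 45101 on the array, for 10 genes of 18194 that a probe set named alone. It used names only and no measured value. Of these, 23 probe sets passed the filter on low values, and every one of the 10 genes had at least 1 of them.

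Pituitary RNA was hybridized to 12 one-color Affymetrix mouse genome arrays, of which 2 came from homozygous POMC KO mice (both alleles deleted), 8 from heterozygous POMC KO mice (1 allele deleted) and 2 from mice with normal pituitary. The study describes the KO tissue as pituitary tumor, and no animal was treated. The labels give neither age, sex, strain nor time of day. The study's methods name a pool of normal mouse pituitaries as the reference, so the spread between the 2 normal arrays may be technical and may leave out differences between animals.

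The deposited values are log2 signals, on which a difference of 1 is a 2-fold change. The KO arrays fell into 5 pairs of consecutive numbers, within which the correlation over all probe sets was 0.997 to 0.9978 and at most 4 probe sets differed by more than 2-fold. Other pairs of heterozygous arrays correlated at 0.9861 to 0.9926 with 433 to 982 such probe sets, and the 2 normal arrays at 0.9929 with 309. The arrays of a pair were therefore averaged and counted as 1 sample, which left 4 heterozygous tumors, called A (arrays 1 and 2), B (3 and 4), C (5 and 6) and D (7 and 8), 1 homozygous tumor and 2 normal pituitaries. Whether a pair held 1 animal or closely matched RNA is not stated by the labels, and p-values measure only the spread between these 7 samples. Pomc checked the labels, with 7.18 in the homozygous tumor, 15.15 to 15.30 in heterozygous tumors, and 15.08 and 15.11 in normal pituitary. Xist, which is transcribed from the inactive X chromosome of females, was high in the homozygous tumor (11.20) and in heterozygous tumors B (10.93) and D (11.25). It was low in heterozygous tumors A (4.58) and C (5.0) and in normal pituitary (5.07 and 4.57), so between the homozygous tumor and normal pituitary, genotype and Xist level cannot be told apart without the heterozygous tumors.

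ACTH released by the anterior pituitary drives the adrenal cortex to secrete corticosterone, the main glucocorticoid of the mouse. Corticosterone enters cells and binds the glucocorticoid receptor, which waits in the cytoplasm with Hsp90 and its co-chaperones, moves to the nucleus and binds response elements in DNA, and feeds back on Pomc in corticotrophs. Fkbp5, Tsc22d3, Sgk1, Per1, Zbtb16, Klf9 and Ddit4 are widely used as readouts of the activated receptor, and the metallothioneins Mt1 and Mt2 answer to glucocorticoids as well as to zinc and other metals. In rodents the receptor is abundant in cells of the anterior lobe and scarce in melanotrophs of the intermediate lobe. Corticosterone itself was not measured here.

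Promoter sequences are shown for 4 of the genes because they differ in the elements through which a glucocorticoid or a metal signal is known to act. Matched by symbol, 8 of the 10 genes were searched in the RefSeq promoter table (build GRCm38.p6). Nr3c1 and Zbtb16 were not searched. The 16 windows of 300 bases run from 250 bases before a transcription start to 50 after it. Both strands were searched for the palindromic glucocorticoid response element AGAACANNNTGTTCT, its core AGAACA, and the metal response element as TGCACNC and as TGCGCNC. The core lies within the palindrome, so every palindrome was also counted as a core. The palindrome stood in 0.00913% of the 32851 windows of the table (3 windows), the core in 19.0%, and the metal element in 12.6% and 15.4% as TGCACNC and TGCGCNC. Below are the 250 bases before the start, 5′ to 3′, on the strand of the gene, with matches to the palindrome in capitals for Sgk1 and Fkbp5 and matches to the metal element in capitals for Mt1 and Mt2.
Sgk1, chr10:21993640-21993889, plus strand: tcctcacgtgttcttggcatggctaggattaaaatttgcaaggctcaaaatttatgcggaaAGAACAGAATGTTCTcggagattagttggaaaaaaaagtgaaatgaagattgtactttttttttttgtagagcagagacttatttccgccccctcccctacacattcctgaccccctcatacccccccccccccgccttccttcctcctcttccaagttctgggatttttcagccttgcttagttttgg
Fkbp5, chr17:28486150-28486399, minus strand: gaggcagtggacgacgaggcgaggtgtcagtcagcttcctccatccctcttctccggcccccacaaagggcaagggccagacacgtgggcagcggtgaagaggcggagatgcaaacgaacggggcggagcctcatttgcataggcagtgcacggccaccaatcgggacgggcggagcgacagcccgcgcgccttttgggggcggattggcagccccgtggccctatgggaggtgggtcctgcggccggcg
Mt1, chr8:94178839-94179088, plus strand: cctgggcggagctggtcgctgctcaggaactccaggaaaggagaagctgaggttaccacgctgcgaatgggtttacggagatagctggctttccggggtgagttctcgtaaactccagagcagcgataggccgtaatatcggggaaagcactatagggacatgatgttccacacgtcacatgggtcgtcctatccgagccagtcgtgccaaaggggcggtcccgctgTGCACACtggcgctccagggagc
Mt2, chr8:94172368-94172617, plus strand: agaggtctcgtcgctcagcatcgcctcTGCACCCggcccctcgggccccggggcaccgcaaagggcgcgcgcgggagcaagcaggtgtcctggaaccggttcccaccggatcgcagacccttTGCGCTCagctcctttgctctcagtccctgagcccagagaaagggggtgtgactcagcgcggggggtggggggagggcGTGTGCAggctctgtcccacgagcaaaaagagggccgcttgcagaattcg
The palindrome began 189 bases before this start of Sgk1, 1 of 6 Sgk1 windows in the table. It was in no other window of the 8 genes searched. Outside Sgk1 the core was found only in 1 of the 3 windows of Tsc22d3. Mt1 had 1 metal element in the stretch shown and 2 more just after its start, and Mt2 had 3 in the stretch shown and 1 after its start. A match describes the letters of a window and no more. As background, Fkbp5 is known for response elements in its introns, outside the stretch printed.

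Set against normal pituitary, 4 of the 10 genes were lower in heterozygous tumors and none was higher (limma, adjusted p under 0.05 over all 24486 tested probe sets and a fold change over 2). The 4 were Nr3c1, Fkbp5, Zbtb16 and Klf9, and at probe set level 12 of 23 were lower. Among the 12, the Klf9 probe set 1436763_a_at passed the filter only through the normal arrays. In such bulk tissue, fewer cells of a type and less RNA per cell cannot be told apart. By the same rule 4.55% of all 12316 tested genes were lower, 5.56% were higher, 10.1% changed in either direction, and 3.77% of all probe sets were lower. The 4 heterozygous tumors all lay below both normal samples for 6 of the 10 genes, as they did for 25.6% of all genes. The median log2 fold change of the 10 genes was -0.41, against 0.00 over all genes. In the homozygous tumor only Fkbp5 and Zbtb16 were lower (2 of 10, background 1.32% of genes lower and 2.75% in either direction), and the median of the 10 was -0.37, against -0.03 over all genes. Between the homozygous tumor and heterozygous tumors none of the 10 passed (background 0.292% of genes), while 3 had an unadjusted limma p under 0.05, against 10.6% of all genes. The homozygous tumor lay outside the range of the heterozygous tumors for 8 of the 10 genes, and for 45.3% of all genes. The 3 with the unadjusted p were Fkbp5, with a lower value in the homozygous tumor, and Nr3c1 and Klf9, with higher values there. The KO genotypes were compared with the same 2 normal samples, so their differences from normal are not independent of each other.

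**Figure D1:**
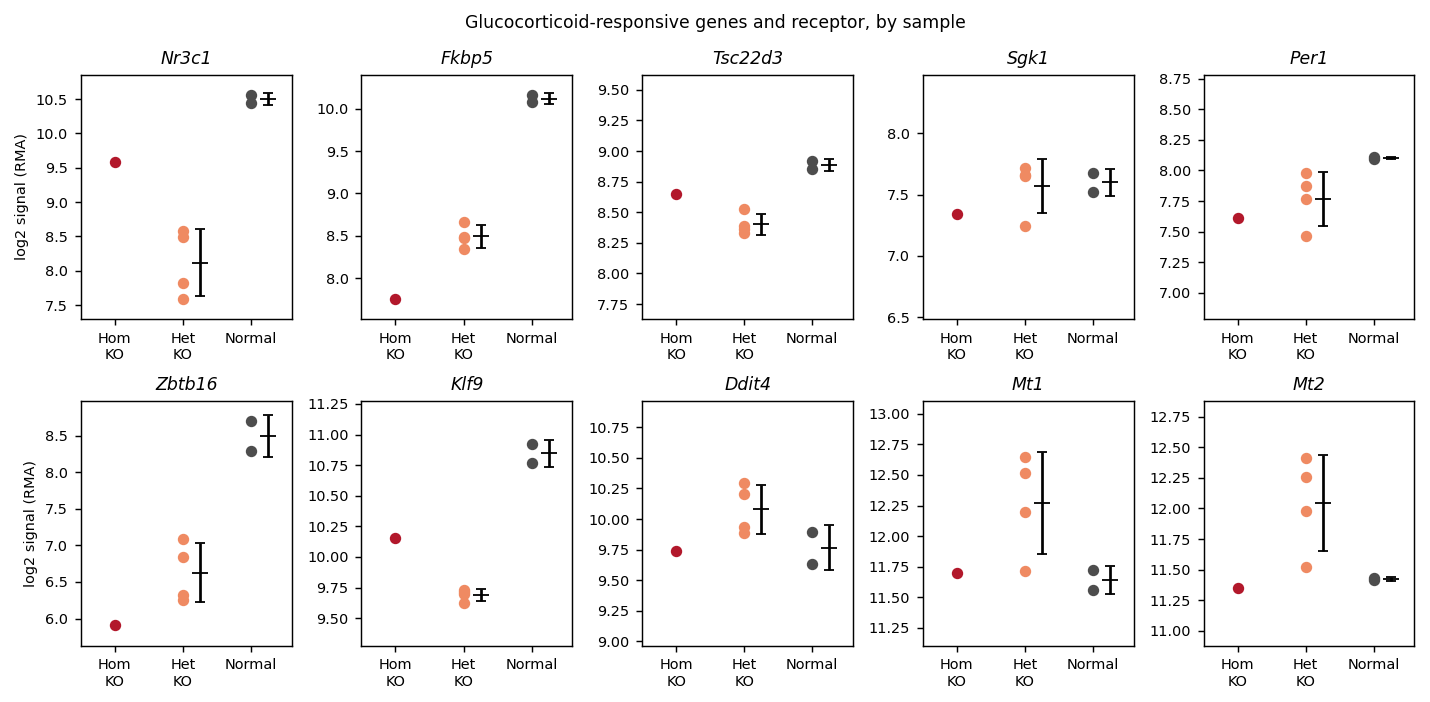
Log2 signal of each gene's representative probe set (vertical axis, each panel spanning at least 2 units) in the homozygous tumor, the 4 heterozygous tumors and 2 normal pituitaries. Each point is 1 sample, and the bars are mean ± SD. Fkbp5 and Zbtb16 are lowest in the homozygous tumor, Nr3c1 and Klf9 are lowest in heterozygous tumors, and Mt1 and Mt2 reach their highest values in heterozygous tumors A and B.

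Nr3c1 encodes the receptor itself, a ligand-activated transcription factor. Its representative probe set (1421867_at) read 9.58 in the homozygous tumor, 7.83, 8.49, 7.59 and 8.57 in heterozygous tumors A to D, and 10.56 and 10.45 in normal pituitary. The 3 genotypes did not overlap, with the homozygous tumor between the others. The receptor transcript averaged 8.12 ± 0.49 in heterozygous tumors (SD, n = 4) and 10.50 ± 0.08 in normal pituitary (SD, n = 2), a fall of 5.22-fold (log2 fold change -2.38, SE 0.29, limma adjusted p = 0.00178). In the homozygous tumor the difference from normal was -0.92 (SE 0.41, 95% interval -1.88 to 0.03, limma adjusted p = 0.291) and did not pass. The homozygous tumor minus heterozygous tumors gave 1.46 (SE 0.37, 95% interval 0.59 to 2.33, unadjusted p = 0.00509, limma adjusted p = 0.261), a difference whose interval lay above 0 but which failed the correction over all probe sets.

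The receptor had 6 probe sets, of which 4 passed the filter, and those 4 gave one picture. Heterozygous tumors were 2.25 to 2.50 log2 units below normal pituitary on them, each past the test. The homozygous tumor was 0.41 to 0.92 units below normal, none past the test, and 1.46 to 1.97 units above the mean of the heterozygous tumors, none past the test. Of the others, 1453860_s_at ran in the same order at lower signal, with 5.45 in the homozygous tumor, 3.93 to 4.49 in heterozygous tumors and 5.61 to 5.89 in normal pituitary. The last, 1431378_at, stayed between 3.98 and 4.40 in all samples, below the median signal of the arrays (5.74).

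Among heterozygous tumors the receptor transcript split with the level of Xist. Tumors B and D, high in Xist, read 8.49 and 8.57, and tumors A and C, low in Xist, read 7.83 and 7.59. With the Xist level as a covariate the heterozygous difference from normal was -2.79 (limma adjusted p = 0.000472), and the homozygous difference became -1.75 and passed (limma adjusted p = 0.0274). With that covariate the homozygous tumor was 1.04 above heterozygous tumors (limma adjusted p = 0.13), and against tumors B and D alone the difference was 1.05 (limma adjusted p = 0.116).

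Fkbp5 encodes a co-chaperone that lowers the affinity of the receptor for its ligand, and its induction by the receptor closes a short negative feedback loop inside the cell. The signal (1416125_at) was 7.75 in the homozygous tumor, 8.67, 8.47, 8.35 and 8.49 in heterozygous tumors A to D, and 10.16 and 10.07 in normal pituitary. No genotype overlapped another, and here the homozygous tumor was the lowest. Heterozygous tumors averaged 8.49 ± 0.13 (SD, n = 4) and normal pituitary 10.12 ± 0.06 (SD, n = 2), 3.08-fold lower (log2 fold change -1.62, SE 0.12, limma adjusted p = 4e-04). The homozygous tumor was 5.15-fold below normal (-2.36, SE 0.17, limma adjusted p = 0.00323), which ranked Fkbp5 as number 8 by p among 12316 genes in that comparison and number 88 in the heterozygous one. Homozygous minus heterozygous was -0.74 (95% interval -1.11 to -0.36, unadjusted p = 0.00212, limma adjusted p = 0.2). The other tested probe set, 1448231_at, was lower by the same test in both genotypes, at -1.82 in the homozygous tumor and -1.16 in heterozygous tumors, and the third did not reach the filter with 2.76 to 3.09.

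Zbtb16 encodes PLZF, a zinc finger repressor that glucocorticoids induce in many tissues. It read 5.91 in the homozygous tumor, 6.32, 6.84, 6.26 and 7.08 in heterozygous tumors A to D, and 8.69 and 8.28 in normal pituitary (1439163_at). The genotypes took the same order as for Fkbp5, again without overlap. The homozygous tumor was 5.99-fold below normal (log2 fold change -2.58, SE 0.37, limma adjusted p = 0.0208), and heterozygous tumors, at 6.62 ± 0.40 (SD, n = 4), were 3.64-fold below normal pituitary at 8.49 ± 0.29 (SD, n = 2; -1.87, SE 0.26, limma adjusted p = 0.00308). Homozygous minus heterozygous was -0.72 (95% interval -1.50 to 0.07, limma adjusted p = 0.586). Without either normal sample the homozygous call was lost, at -2.38 (limma adjusted p = 0.0975) without normal 1 and -2.79 (limma adjusted p = 0.0725) without normal 2. Its second tested probe set was lower in both genotypes as well, by 1.89 units in the homozygous tumor and 1.48 in heterozygous tumors. Within the heterozygous tumors Zbtb16 too was higher in B and D than in A and C.

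Klf9, a Krüppel-like transcription factor that glucocorticoid and thyroid hormone both induce in rodents, kept to the genotype order of the receptor on its representative probe set. The signal (1428288_at) was 10.16 in the homozygous tumor, 9.69, 9.73, 9.62 and 9.71 in heterozygous tumors A to D, and 10.93 and 10.77 in normal pituitary. The 4 heterozygous tumors lay within 0.11 log2 units of one another, below every other sample. They averaged 9.69 ± 0.05 (SD, n = 4), against 10.85 ± 0.11 in normal pituitary (SD, n = 2), 2.23-fold lower (log2 fold change -1.16, SE 0.11, limma adjusted p = 0.000682). The homozygous tumor was 0.69 below normal (95% interval -1.05 to -0.34, limma adjusted p = 0.0644) and 0.47 above heterozygous tumors (95% interval 0.14 to 0.79, unadjusted p = 0.0111, limma adjusted p = 0.342). Of its 6 tested probe sets 4 were lower in heterozygous tumors, 1456341_a_at missed the fold limit at -0.92 (limma adjusted p = 0.00735), and 1436952_at, a dim one, stood at -0.15 (limma adjusted p = 0.585).

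Tsc22d3 encodes GILZ, a leucine zipper protein through which glucocorticoids act against inflammation. It read 8.65 in the homozygous tumor, 8.37, 8.39, 8.33 and 8.53 in heterozygous tumors A to D, and 8.85 and 8.92 in normal pituitary (1420772_a_at). The genotype order was that of the receptor and of Klf9, over a smaller range. Heterozygous tumors averaged 8.40 ± 0.09 (SD, n = 4), against 8.89 ± 0.05 in normal pituitary (SD, n = 2), a log2 fold change of -0.48 with a limma adjusted p of 0.0204 that was under the fold limit. The homozygous tumor stood at -0.24 from normal (95% interval -0.60 to 0.13, limma adjusted p = 0.484). All 3 tested probe sets of Tsc22d3 lay below normal in both genotypes, at -0.15 to -0.26 in the homozygous tumor and at -0.29 to -0.48 in heterozygous tumors. Where adjusted p alone is the rule, 5 of the 10 genes were lower in heterozygous tumors, against 11.5% of all genes.

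Sgk1 encodes a serum- and glucocorticoid-regulated kinase that controls ion channels and transporters, and it carries the palindrome printed above. Its only probe set (1416041_at) read 7.34 in the homozygous tumor, 7.72, 7.66, 7.65 and 7.24 in heterozygous tumors A to D, and 7.52 and 7.68 in normal pituitary. Heterozygous tumors lay on both sides of the normal samples, with D the lowest of all. The log2 fold changes were -0.03 in heterozygous tumors (95% interval -0.41 to 0.34, limma adjusted p = 0.91) and -0.26 in the homozygous tumor (95% interval -0.79 to 0.27, limma adjusted p = 0.61). The intervals reached no lower than -0.41 and -0.79, where Fkbp5 stood at -1.62 and -2.36.

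Per1, a repressor of the circadian clock that glucocorticoids induce at once, read 7.62 in the homozygous tumor, 7.77, 7.87, 7.98 and 7.46 in heterozygous tumors A to D, and 8.11 and 8.10 in normal pituitary. Every KO sample was below both normal samples, as 25.6% of all genes were in the heterozygous comparison. The differences were -0.49 in the homozygous tumor (95% interval -1.01 to 0.04, limma adjusted p = 0.309) and -0.33 in heterozygous tumors (95% interval -0.70 to 0.04, limma adjusted p = 0.172), neither past the test. The clock hour at which tissue was taken is not in the labels.

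Mt1 and Mt2 encode metallothioneins, small proteins that bind zinc and copper. Mt1 (1422557_s_at) read 11.70 in the homozygous tumor, 12.52, 12.65, 11.72 and 12.19 in heterozygous tumors A to D, and 11.56 and 11.72 in normal pituitary. Mt2 (1428942_at) read 11.35 in the homozygous tumor, 12.26, 12.41, 11.52 and 11.98 in heterozygous tumors A to D, and 11.44 and 11.41 in normal pituitary. Tumors B and A were highest for both, and tumor C lay close to normal. Heterozygous minus normal was 0.63 for Mt1 (95% interval 0.04 to 1.22, limma adjusted p = 0.118) and 0.62 for Mt2 (95% interval 0.06 to 1.17, limma adjusted p = 0.105). The homozygous tumor differed from normal by 0.06 for Mt1 (95% interval -0.78 to 0.89) and by -0.08 for Mt2 (95% interval -0.87 to 0.71), both far from the threshold (limma adjusted p = 0.952 and 0.931). The genes are close paralogs and the Mt1 probe set carries the suffix for probes shared between transcripts, so their signals may not be fully separate. A second Mt1 probe set of low signal, 1451612_at, gave -0.07 in heterozygous tumors.

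Ddit4 encodes REDD1, an inhibitor of mTORC1 that answers to glucocorticoids, hypoxia and energy stress. It read 9.73 in the homozygous tumor, 10.21, 10.30, 9.88 and 9.94 in heterozygous tumors A to D, and 9.63 and 9.89 in normal pituitary. Its order among heterozygous tumors, B, A, D, C, was that of Mt1 and Mt2. The differences from normal were -0.03 in the homozygous tumor (95% interval -0.56 to 0.50, limma adjusted p = 0.962) and 0.32 in heterozygous tumors (95% interval -0.06 to 0.69, limma adjusted p = 0.196).

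**Figure D2:**
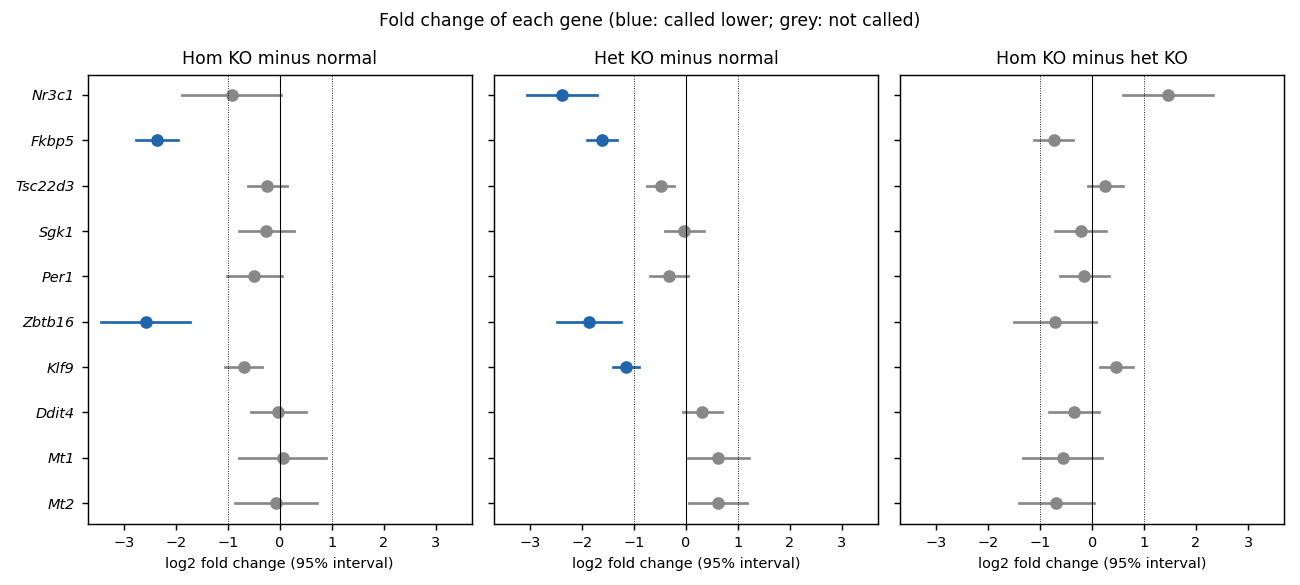
Log2 fold change of each gene's representative probe set with its 95% interval (horizontal axis) for the homozygous tumor minus normal, heterozygous tumors minus normal, and homozygous minus heterozygous. Dotted lines mark 2-fold. Fkbp5 and Zbtb16 passed the test in both KO genotypes, Nr3c1 and Klf9 in heterozygous tumors, and none between the KO genotypes.

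Over the 7 samples the genes thus fell into sets by pattern, which are descriptions of points that share genotype and tissue makeup. Nr3c1 correlated with Tsc22d3 at r = 0.975 and with Klf9 at 0.957, Fkbp5 with Zbtb16 at 0.952, Mt1 with Mt2 at 0.986, and Mt1 with Ddit4 at 0.943. The sets were not sharply separate, since Nr3c1, Klf9 and Tsc22d3 correlated with Fkbp5 and Zbtb16 at 0.677 (Nr3c1 with Fkbp5) to 0.818 (Klf9 with Zbtb16). Among the other 12315 tested genes, the closest to Fkbp5 were Ak4 (r = 0.997), Exoc6b (0.994) and Ccn4 (0.991), and the closest to Nr3c1 were Nrsn1 (0.992), Abca4 (0.991) and Frem1 (0.99).

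**Figure D3:**
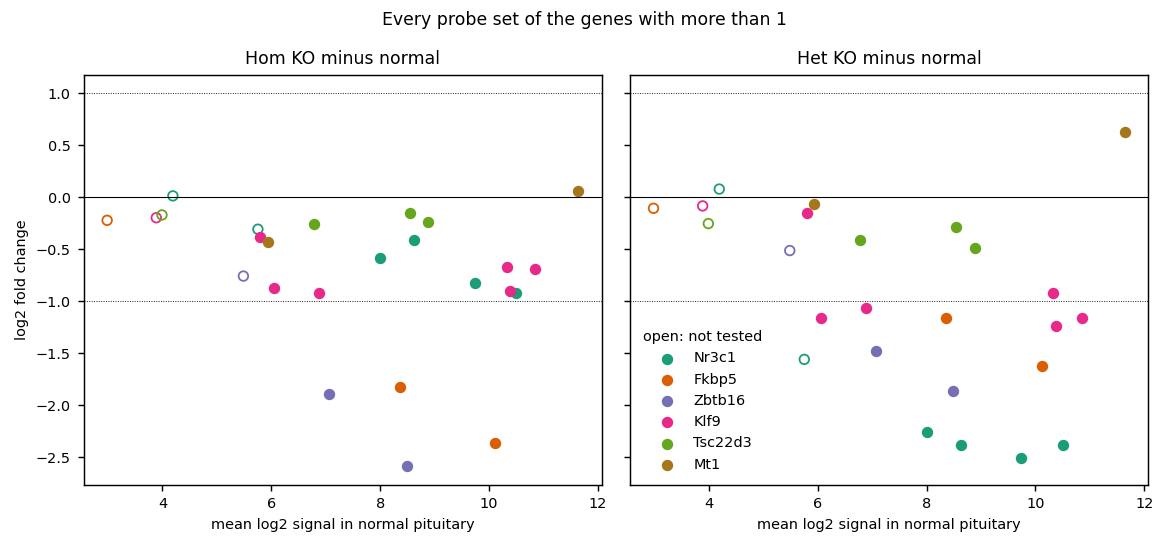
Log2 fold change (vertical axis) of every probe set of the 6 genes that have more than 1, against its mean log2 signal in normal pituitary (horizontal axis), for the homozygous tumor and for heterozygous tumors. Filled points were tested and open points fell below the filter. The 4 tested probe sets of Nr3c1 lie at -2.25 to -2.50 in heterozygous tumors and at -0.41 to -0.92 in the homozygous tumor, while those of Fkbp5 and Zbtb16 lie lower in the homozygous tumor.

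Genes of steroid metabolism and export, with the mineralocorticoid receptor gene, were examined next, of which 5 could be tested. In heterozygous tumors 2 of them were lower, against 4.55% of all genes. Nr3c2, the mineralocorticoid receptor, which binds corticosterone with high affinity, read 7.54 in the homozygous tumor, 5.65, 6.36, 6.36 and 7.48 in heterozygous tumors A to D, and 8.60 and 8.34 in normal pituitary (heterozygous log2 fold change -2.01, limma adjusted p = 0.0165). Hsd11b1, the enzyme that regenerates active corticosterone inside cells, read 8.57 in the homozygous tumor, 6.91, 7.62, 7.29 and 7.91 in heterozygous tumors A to D, and 9.53 and 9.67 in normal pituitary (heterozygous log2 fold change -2.17, limma adjusted p = 0.00175). Both took the order of the receptor, with the homozygous tumor between normal and the heterozygous tumors, and in it neither passed (-0.93 and -1.03, limma adjusted p = 0.479 and 0.199). The chaperones and nuclear coregulators of the receptor, among them Hsp90aa1, Fkbp4 and Ncoa1, gave 0 calls of 11 in either genotype by limma, with 0 unadjusted p under 0.05 in the homozygous tumor and 1 in heterozygous tumors, where 19.2% and 39.2% of all genes had one. They had a median log2 fold change of -0.06 in the homozygous tumor and -0.12 in heterozygous tumors.

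**Figure D4:**
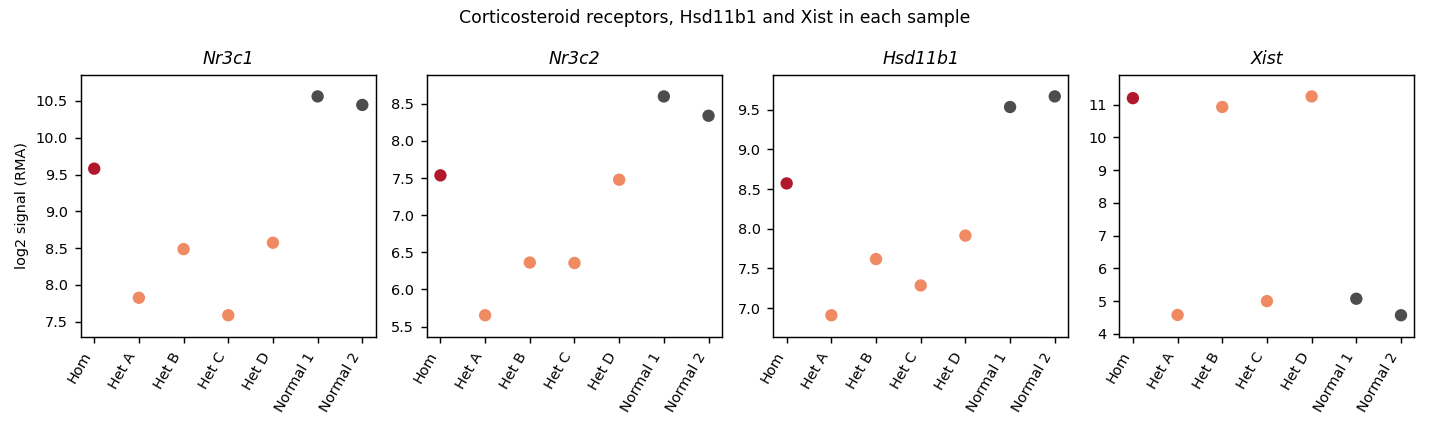
Log2 signal (vertical axis) of the glucocorticoid receptor gene Nr3c1, the mineralocorticoid receptor gene Nr3c2, Hsd11b1 and Xist in each of the 7 samples (horizontal axis). The first 3 genes are highest in normal pituitary and intermediate in the homozygous tumor, and Xist is high in the homozygous tumor and in heterozygous tumors B and D.

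A list of 24 tested genes that glucocorticoids induce in other rodent tissues moved in both directions. In the homozygous tumor 3 were lower and 1 higher, where 1.32% of all genes were lower and 1.44% higher. In heterozygous tumors 5 were lower and 3 higher, where 4.55% of all genes were lower and 5.56% higher. The list's median was -0.35 in the homozygous tumor and -0.47 in heterozygous tumors, against -0.03 and 0.00 over all genes. Pdk4, a kinase that shuts down glucose oxidation, was lower in the homozygous tumor (-1.87, limma adjusted p = 0.0377) and in heterozygous tumors (-2.16, limma adjusted p = 0.00125), where its signal of 4.93 to 5.86 was near the array median. Crispld2, a secreted protein, was likewise lower in the homozygous tumor (-1.61, limma adjusted p = 0.0393) and in heterozygous tumors (-1.78, limma adjusted p = 0.00158). Hif3a was lower in the homozygous tumor (-1.13, limma adjusted p = 0.0239), and in heterozygous tumors it missed only the fold limit (-0.90, limma adjusted p = 0.00244). Against these, Lcn2, the iron-scavenging lipocalin, was higher in the homozygous tumor (2.28, limma adjusted p = 0.0249) and was higher in heterozygous tumors too (1.50, limma adjusted p = 0.00587). Neutrophils also make this protein, and the 4 neutrophil markers had a median log2 fold change of 2.96 in the homozygous tumor and 1.01 in heterozygous tumors, whose part in the Lcn2 values was not tested. The cell cycle inhibitor Cdkn1a (2.24, limma adjusted p = 0.0179) and the anti-inflammatory annexin Anxa1 (1.80, limma adjusted p = 0.00279) were higher in heterozygous tumors.

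**Figure D5:**
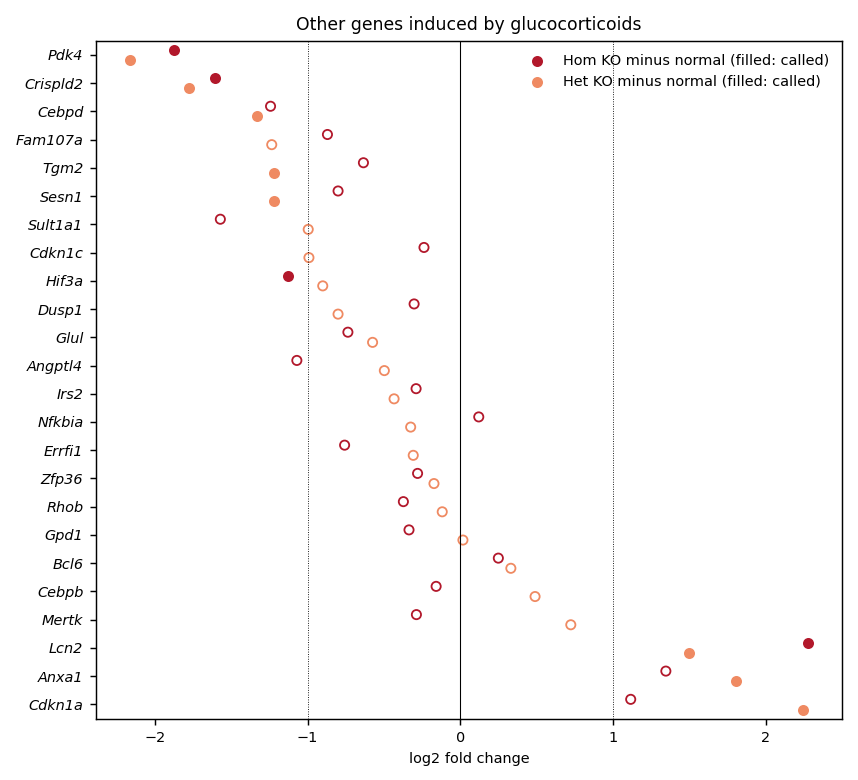
Log2 fold change against normal pituitary (horizontal axis) of 24 other glucocorticoid-induced genes (rows), for the homozygous tumor and for heterozygous tumors. Filled points passed the test and open points did not. Pdk4 and Crispld2 are lower and Lcn2 higher in both, and Cdkn1a and Anxa1 passed as higher in heterozygous tumors.

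Genes that glucocorticoids repress gave a mixed account. Of 7 tested, Pomc alone was lower in the homozygous tumor (-7.92, limma adjusted p = 1.11e-06), and its deletion sets that value. Crhr1, the receptor through which hypothalamic CRH stimulates corticotrophs, read 7.53 in the homozygous tumor, 5.07 to 5.47 in heterozygous tumors, and 6.77 and 6.67 in normal pituitary. It was 2.25 log2 units higher in the homozygous tumor than in heterozygous tumors (limma adjusted p = 0.00368) and, set against normal pituitary, lower in heterozygous tumors (-1.44, limma adjusted p = 0.000793). The heterozygous values of Crhr1 lay below the filter value (5.74). It entered the tests only through the other samples, so its calls are not independent of the filter. The orphan receptor Nr4a1, an immediate target of CRH signaling, was lower in heterozygous tumors (-1.69, limma adjusted p = 0.0237), and the adhesion molecule Vcam1 was higher (1.60, limma adjusted p = 0.0403). Vcam1 read 5.31 and 5.44 in normal pituitary, below the filter value, and entered the tests only through KO samples. Its call is thus not independent of the filter either. Of all genes, 4.55% were lower and 5.56% higher in heterozygous tumors.

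Several of the 10 genes answer to signals other than glucocorticoid, and genes of those pathways were counted beside them. As background for these counts, 1.44% of all genes were higher in the homozygous tumor and 5.56% in heterozygous tumors. Of 12 hypoxia genes, 3 were higher in the homozygous tumor and 8 in heterozygous tumors, with none lower. Egln3, an oxygen-sensing hydroxylase, rose by 2.21 log2 units in the homozygous tumor (limma adjusted p = 0.029) and by 3.22 in heterozygous tumors (limma adjusted p = 0.000432). The mean log2 level of the hypoxia list was 9.0 in the homozygous tumor, 9.38 to 10.05 in heterozygous tumors and 8.19 to 8.29 in normal pituitary, and the part of hypoxia in the Ddit4 values was not tested. Of 9 metal handling genes, Hmox1, the heme oxygenase, was higher (3.63, limma adjusted p = 0.00342) and Gclc, of glutathione synthesis, lower (-1.03, limma adjusted p = 0.00635) in heterozygous tumors, with 0 calls in the homozygous tumor by limma and 4 unadjusted p under 0.05 (19.2% of all genes). Of 16 clock genes other than Per1, Per2 (1.27, limma adjusted p = 0.00403) and Bhlhe40 (1.15, limma adjusted p = 0.00117) were higher in heterozygous tumors. None of the 16 passed in the homozygous tumor, where 7 had an unadjusted limma p under 0.05, against 19.2% of all genes. Of 6 thyroid hormone receptors and targets, the deiodinases split in heterozygous tumors, with Dio1 higher (2.01, limma adjusted p = 0.000449) and Dio2 lower (-1.36, limma adjusted p = 0.00751). The 10 tested genes of the ATF4 stress response, which also reaches Ddit4, gave 0 calls by limma in both genotypes, with 2 unadjusted p under 0.05 in the homozygous tumor (19.2% of all genes) and 4 in heterozygous tumors (39.2% of all genes).

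The levels of several cell type markers also differed between the genotypes. Beside the counts below, 1.32% of all genes were lower and 1.44% higher in the homozygous tumor. In heterozygous tumors 4.55% of all genes were lower and 5.56% higher. Markers of gonadotrophs and thyrotrophs, anterior lobe cells, were lower for 1 of 7 in the homozygous tumor and for 6 of 7 in heterozygous tumors. Their mean log2 level was 8.62 in the homozygous tumor, 5.89 to 7.76 in heterozygous tumors and 10.58 to 10.60 in normal pituitary. That genotype order was also taken by Nr3c1, Nr3c2, Hsd11b1, Klf9 and Tsc22d3. Over a much smaller range it was also that of the housekeeping list and of the receptor's chaperones and coregulators. The housekeeping mean was 11.22 in the homozygous tumor, 11.07 to 11.20 in heterozygous tumors and 11.25 to 11.28 in normal pituitary. The share of all genes with this order was not counted. Among heterozygous tumors the orders matched in part. A was lowest for the gonadotroph and thyrotroph markers (5.89), Nr3c2 (5.65) and Hsd11b1 (6.91), and C for Nr3c1 (7.59), Klf9 (9.62) and Tsc22d3 (8.33). D was highest for the markers (7.76), Nr3c1 (8.57), Nr3c2 (7.48), Hsd11b1 (7.91) and Tsc22d3 (8.53), and B for Klf9 (9.73). Somatotroph and lactotroph markers averaged 12.07 in the homozygous tumor, within the 11.06 to 12.56 of heterozygous tumors, and 13.07 to 13.10 in normal pituitary. Endothelial markers were highest in the homozygous tumor, at 7.04, against 6.35 to 6.65 in heterozygous tumors and 6.83 to 6.85 in normal pituitary. Pituicyte, glial and folliculostellate markers were lower for 3 of 8 in the homozygous tumor and 4 of 8 in heterozygous tumors, with mean levels of 7.03 in the homozygous tumor, 6.84 to 7.29 in heterozygous tumors and 7.76 to 7.94 in normal pituitary. Macrophage markers ran the other way, with 3 of 12 higher in the homozygous tumor and 9 of 12 in heterozygous tumors, and mean levels of 7.72 in the homozygous tumor, 8.01 to 8.70 in heterozygous tumors and 6.45 to 6.72 in normal pituitary. Melanotroph and corticotroph markers were split. Of 7 tested, the melanotroph factor Pax7 was higher in heterozygous tumors (1.48, limma adjusted p = 0.00262), while Neurod1 (-2.84, limma adjusted p = 2e-04) and Crhr1 were lower there. The mean level of the 7 was 8.95 in the homozygous tumor, where Pomc alone was lower, 9.54 to 9.67 in heterozygous tumors and 9.94 to 9.97 in normal pituitary. That homozygous mean includes the deleted Pomc, at 7.18 there against 15.15 to 15.30 in heterozygous tumors, so it does not describe the other markers. Homozygous minus heterozygous was above 0 for 3 of the 7 and below 0 for 4, Pomc among them. Neurod1 read 6.85 in the homozygous tumor, 3.91 to 4.33 in heterozygous tumors, and 6.74 and 7.02 in normal pituitary. Neutrophil markers had mean levels of 8.10 in the homozygous tumor, 5.50 to 7.52 in heterozygous tumors and 5.18 to 5.37 in normal pituitary. None of the 4 passed in the homozygous tumor by limma, where 3 had an unadjusted p under 0.05 (19.2% of all genes). Ltf alone was higher in heterozygous tumors (2.55, limma adjusted p = 0.0341). Fibroblast markers were lower for 3 of 6 in heterozygous tumors, at mean levels of 8.08 in the homozygous tumor, 8.15 to 9.47 in heterozygous tumors and 9.08 to 9.32 in normal pituitary. Some markers called lower in heterozygous tumors, such as Gnrhr, Nr5a1, Trhr, Aldh1l1, Neurod1 and Crhr1, read below the filter value (5.74) in every heterozygous tumor. Some called higher there, such as the macrophage markers Fcgr3, Mrc1 and Adgre1 and the neutrophil marker Ltf, read below it in both normal samples. All of these entered the tests only through other samples, so those calls are not independent of the filter. The part of these cell types in the values of the 10 genes was not tested.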

How the data were processed

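The deposited log2 values of the Affymetrix arrays were made by the authors with the Robust Multichip Average algorithm. The submitters' processing notes name Affymetrix Expression Console for this, whereas the study's methods name GeneSpring GX. RMA equalizes the distributions of the arrays, so changes are relative to the whole transcriptome, and the number of arrays limits the precision. Probe sets were named from the platform annotation, by which 34945 named 1 gene, 932 several and 9160 none, and 64 were controls.

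Probe sets entered the tests where 2 or more arrays reached the overall median log2 value (5.74). A probe set could thus enter through the group in which it was high, and a call on it is then not independent of the filter. KO arrays of 1 genotype that correlated at 0.995 or more were averaged, which left 7 samples and 4 residual degrees of freedom. Linear models with empirical Bayes moderation were fitted in limma 3.58.1 (R 4.3.3) with Benjamini-Hochberg adjustment, and a call needed more than a 2-fold change with an adjusted p below 0.05. The lone homozygous sample was assumed to vary like the others. A gene was represented by its tested probe set of highest mean. The scripts were tested on simulated data. The genes and gene lists were chosen with earlier results of these data known. Of each list, the genes named were up to 4 with the greatest change among those called, and for Fkbp5 and Nr3c1 the 3 best correlated genes. The alternatives were other treatments of the array pairs, filters, normalizations, variance models, an Xist covariate, a one-way test on 12 arrays, and leaving out each sample in turn.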

Additional observations from a re-analysis of the deposited data

Results flagged for a closer look

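Among the 4 heterozygous tumors 1 sample stood apart from the rest in 2 of the 23 tested probe sets, and chance sets 1 sample apart in about 1 of 20 groups. For Sgk1, tumor D was the lowest at 7.24, while the other 3 lay between 7.65 and 7.72. For Klf9, tumor C was the highest at 5.07 on 1436763_a_at, a probe set below the array median in all KO samples, while the other 3 lay between 4.83 and 4.86.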

How the results depend on the processing

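The 4 genes lower in heterozygous tumors were 4 under 18 of 19 alternatives and 5 with adjusted p alone. Over the alternatives that kept the probe set, the heterozygous log2 fold change was -2.80 to -2.21 for Nr3c1, -1.68 to -1.45 for Fkbp5, -2.21 to -1.66 for Zbtb16 and -1.24 to -1.04 for Klf9, all with a limma adjusted p of at most 0.0393. In the homozygous tumor the count of 2 stayed under 15 of 18 alternatives, was 3 with the Xist covariate, which added Nr3c1, and was 1 to 2 when each sample was left out in turn, 1 without normal 1 or normal 2, which lost Zbtb16. Without normal 1 or normal 2 the count over all genes in that comparison was 35 or 34, against 339 with both. Homozygous against heterozygous, 1 gene instead of 0 passed with the 12 arrays as separate samples (Nr3c1 at 1.46, limma adjusted p = 0.0085). It also passed in the one-way test, whose adjusted p of 0.00116 covers the 3 genotypes together and is no test of this pair. Both count near-identical arrays as replicates. Over all genes they gave 305 and 349 calls, against 36 in the comparison as reported.

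The replicate number as a block, also on the 12 arrays, gave 1 gene between the KO genotypes (Nr3c1 at 1.75, adjusted p = 0.000363), and no other count of the 10 genes changed. It moved the counts over all genes to 739 between the KO genotypes, 819 in the homozygous tumor and 1591 in heterozygous tumors. Deviations of same-numbered arrays correlated at -0.11 to 0.10, so they share only a number.

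Changes of sign concerned differences that had passed no test. For Sgk1 heterozygous minus normal was 0.12 with the replicate block, 0.084 with housekeeping centring, 0.094 with the Xist covariate, 0.087 in low-Xist samples only (chosen after seeing the data), and -0.11 to 0.078 when each sample was left out, above 0 without tumor D or normal 2. Homozygous minus normal was 0.000718 for Sgk1 and -0.21 for Mt1 with the Xist covariate, -0.024 to 0.14 for Mt1 and -0.16 to 0.10 for Ddit4 when each sample was left out, and 0.019 for Ddit4 with housekeeping centring. Other probe sets gave -0.068 (heterozygous) and -0.43 (homozygous) for Mt1, and -0.22 for Klf9 between the KO genotypes. The causes were not tested. Housekeeping centring moved the median of all genes in heterozygous tumors to 0.12.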

Other observations

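Akr1c14, a hydroxysteroid dehydrogenase on the list of steroid metabolism genes, was singled out after its values were seen. It read 9.83 in the homozygous tumor, 3.64, 6.11, 4.41 and 8.74 in heterozygous tumors A to D, and 3.22 and 3.92 in normal pituitary. The 3 samples high in Xist were the 3 highest for this gene. It passed no comparison, with log2 fold changes of 6.26 in the homozygous tumor (limma adjusted p = 0.125) and 2.16 in heterozygous tumors (limma adjusted p = 0.261).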
